A study of Mus musculus with 8 samples.

Results

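The spots described here carry the label piriform and amygdalar cortex and number 1278 of the 21328 spots kept in 8 coronal mouse brain sections profiled by Visium spatial transcriptomics. They were chosen by their own RNA. In each section, spots with at least 200 detected genes and at most 30% mitochondrial UMIs were kept (a UMI, or unique molecular identifier, counts 1 captured RNA molecule), and the 6% of spots with the most UMIs of Lypd1, Ccn3, Kcng1, Cyp26b1, Igfn1 and Bmp3 per 10000 UMIs were taken. They are called the Lypd1/Ccn3 spots below, because the check against other genes of piriform cortex and amygdala bore the label out only in part. The levels of the 6 marker genes, and every level in these spots set against the rest of the section, follow from that choice and are given as a description with no test.

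Each Visium spot is 55 µm wide and collects RNA from several cells of a section 10 µm thick, so a spot is a small region and not a cell. There were 4 groups with 2 sections each. PTX+GCV mice received paclitaxel (PTX, a microtubule-stabilizing chemotherapy drug) at 5 mg/kg per day on 5 days in each of 2 cycles 7 days apart, and later ganciclovir (GCV) at 25 mg/kg per day on 5 days in each of 2 cycles 2 weeks apart. PTX+ABT263 mice received the same PTX and then ABT263 (navitoclax, an inhibitor of the anti-apoptotic BCL-2 proteins that removes some senescent cells) at 1.5 mg/kg per day on the same schedule. PTX mice received PTX and vehicle, and Control mice vehicle only. All 4 groups, Control included, were p16-3MR mice labelled male and 9 to 10 months old, with brains taken 6 months after PTX. The p16-3MR transgene joins a reporter to a thymidine kinase of viral origin, both driven by the promoter of the senescence gene p16, so GCV, a prodrug that the kinase activates, becomes toxic in cells that switch on that promoter. It is not stated whether the sections of 1 group are from different animals, so the p-values below measure only the spread between sections. The labels do not give the plane of each section along the brain.

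The sections held 141 to 170 Lypd1/Ccn3 spots with 1702537 to 3498869 UMIs in sum, and a median of 11423 to 21369 UMIs a spot against 7419 to 15591 in the other spots. Both PTX+ABT263-labelled sections went against their label of male: their Lypd1/Ccn3 spots held 59 and 41 UMIs of Xist, which coats the inactive X chromosome in females, where PTX+GCV, PTX and Control sections held 0, and 2 and 0 UMIs of the Y-linked Ddx3y, where the other 6 sections held 58 to 109. Comparisons with these sections therefore also compare sex, and both differences cannot be told apart. Hypothalamic peptide RNAs in the rest of the sections also differed between sections, within the Control group as well as between groups. Avp, which encodes vasopressin, had 10.6 and 7.99 CPM (UMIs per 1000000 UMIs of that set of spots) in PTX+GCV sections, 3.00 and 5.04 in PTX+ABT263-labelled sections, 336 and 261 in PTX sections and 151 and 2.46 in Control sections. Pmch, which encodes melanin-concentrating hormone, was at 802 and 791 CPM in PTX+GCV sections, 1420 and 524 in PTX+ABT263-labelled sections, 54.8 and 0.652 in PTX sections and 878 and 59.9 in Control sections. The PTX sections thus held the most Avp and the least Pmch outside the Lypd1/Ccn3 spots, and the part this plays in the group comparisons was not tested. Since array barcodes mark fixed positions, 970 barcodes were shared by all 8 sections.

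Piriform cortex is the main cortical target of the olfactory bulb and, unlike isocortex, has few layers. It adjoins the endopiriform nucleus and the cortical and basolateral amygdala, whose principal neurons are glutamatergic like those of cortex, while the central amygdala is mostly GABAergic and resembles striatum. Of the 6 marker genes, Lypd1 encodes a Ly6 prototoxin that binds nicotinic acetylcholine receptors, Ccn3 a secreted matricellular protein, Kcng1 a silent potassium channel subunit that joins Kv2 channels, Cyp26b1 the enzyme that breaks down retinoic acid, Bmp3 a secreted member of the bone morphogenetic protein family, and Igfn1 an immunoglobulin and fibronectin domain protein known mainly from muscle.

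Lypd1 (GRCm38 chromosome 1, 125867622 to 125913101, minus strand) carried most of the signal in PTX+GCV section 1 and Control section 2. In the Lypd1/Ccn3 spots it had 728 and 192 CPM in PTX+GCV sections, 437 and 376 in PTX+ABT263-labelled sections, 262 and 256 in PTX sections and 253 and 851 in Control sections, against 35.9 to 66.4 in the other spots. The sections of PTX+GCV and of Control thus lay on both sides of the PTX sections for this gene. Ccn3 (chromosome 15, 54745702 to 54754039, plus strand) was more even, at 311 and 279 CPM in PTX+GCV sections, 310 and 257 in PTX+ABT263-labelled sections, 292 and 211 in PTX sections and 289 and 364 in Control sections. PTX section 2 was the lowest and Control section 2 the highest. Cyp26b1 (chromosome 6, 84571414 to 84593908, minus strand) had 52.2 and 79.5 CPM in PTX+GCV sections, 108 and 88.7 in PTX+ABT263-labelled sections, 40.2 and 44.2 in PTX sections and 85.2 and 45.8 in Control sections. Kcng1 ranged from 54.3 to 108 and Bmp3 from 30.1 to 67.0 CPM over the 8 sections. Igfn1 ran the other way from Lypd1, with 18.1 and 35.2 CPM in PTX+GCV sections, 11.7 and 14.1 in PTX+ABT263-labelled sections, 43.8 and 39.6 in PTX sections and 24.7 and 5.86 in Control sections. The sections with the most Igfn1 were both PTX sections, and the section with the least was Control section 2, which had the most Lypd1.

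**Figure D1:**
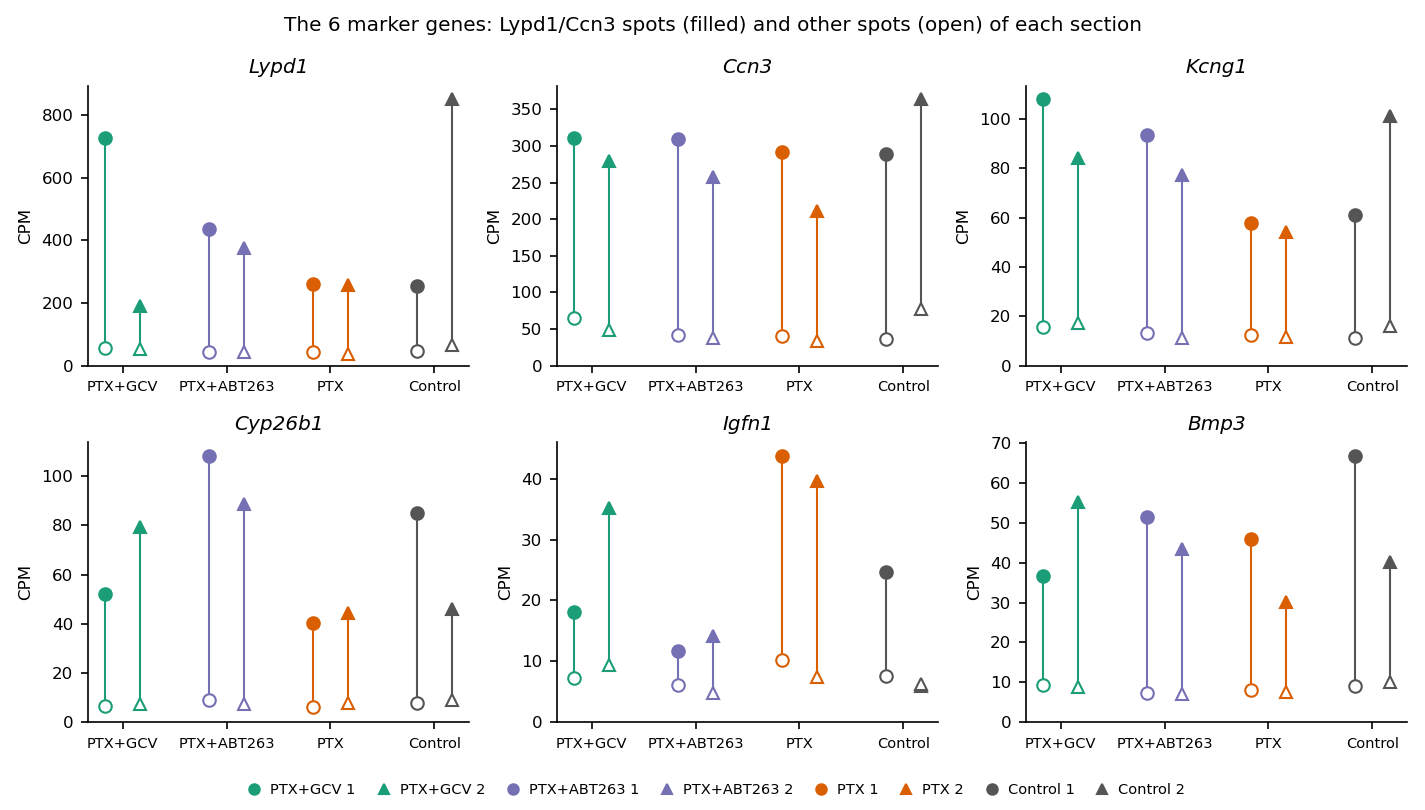
Level of each of the 6 marker genes in CPM in the Lypd1/Ccn3 spots (filled) and in the other spots (open) of each section, with sections grouped as PTX+GCV, PTX+ABT263, PTX and Control. Lypd1 spans 192 to 851 CPM in the chosen spots and Ccn3 only 211 to 364.

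The lowest score inside the choice and the highest outside it were 8.04 and 7.97 marker UMIs per 10000 in PTX+GCV section 1 and 5.22 and 5.21 in PTX+GCV section 2, 5.05 and 5.02 in PTX section 1 and 4.12 and 4.08 in PTX section 2, and 5.47 and 5.42 in Control section 1 and 9.35 and 9.25 in Control section 2. Both PTX sections had lower thresholds than the other 6, so the fixed share of spots took weaker spots there. Spots with UMIs of at least 2 marker genes numbered 154 and 149 in PTX+GCV sections, 162 and 152 in PTX+ABT263-labelled sections, 133 and 142 in PTX sections and 111 and 149 in Control sections. Control section 1 held the most spots chosen on a single marker gene, 30 of 141.

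The Lypd1/Ccn3 spots lay together in most sections. Of the array neighbours of a chosen spot, 55.5% and 44.6% were chosen too in PTX+GCV sections, 53.3% and 55.3% in PTX+ABT263-labelled sections, 45.0% and 29.1% in PTX sections and 35.7% and 64.6% in Control sections, against 2.35% to 4.18% for the other spots. The largest connected patch held 121 and 74 spots in PTX+GCV sections, 110 and 95 in PTX+ABT263-labelled sections, 39 and 27 in PTX sections and 51 and 127 in Control sections. Both PTX sections had the smallest patches, 25.5% and 16.5% of their chosen spots, and Control section 1 was the next with 36.2%. In the remaining sections the largest patch took 43.5% to 82.5%. The chosen spots outside the largest patch, called scattered spots from here on, are set against the patch further on. The chosen spots of the PTX sections also lay nearer the border of the tissue, which also runs along gaps in it. The median distance from spots with a missing neighbour was 7 and 5 spots in PTX+GCV sections, 6 and 4 in PTX+ABT263-labelled sections, 1 and 1 in PTX sections and 5 and 7 in Control sections. For the largest patch alone it was 1 and 3 in PTX sections and 6 to 8 in the other 6. Whether the chosen spots come from the same region in each group was not tested.

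**Figure D2:**
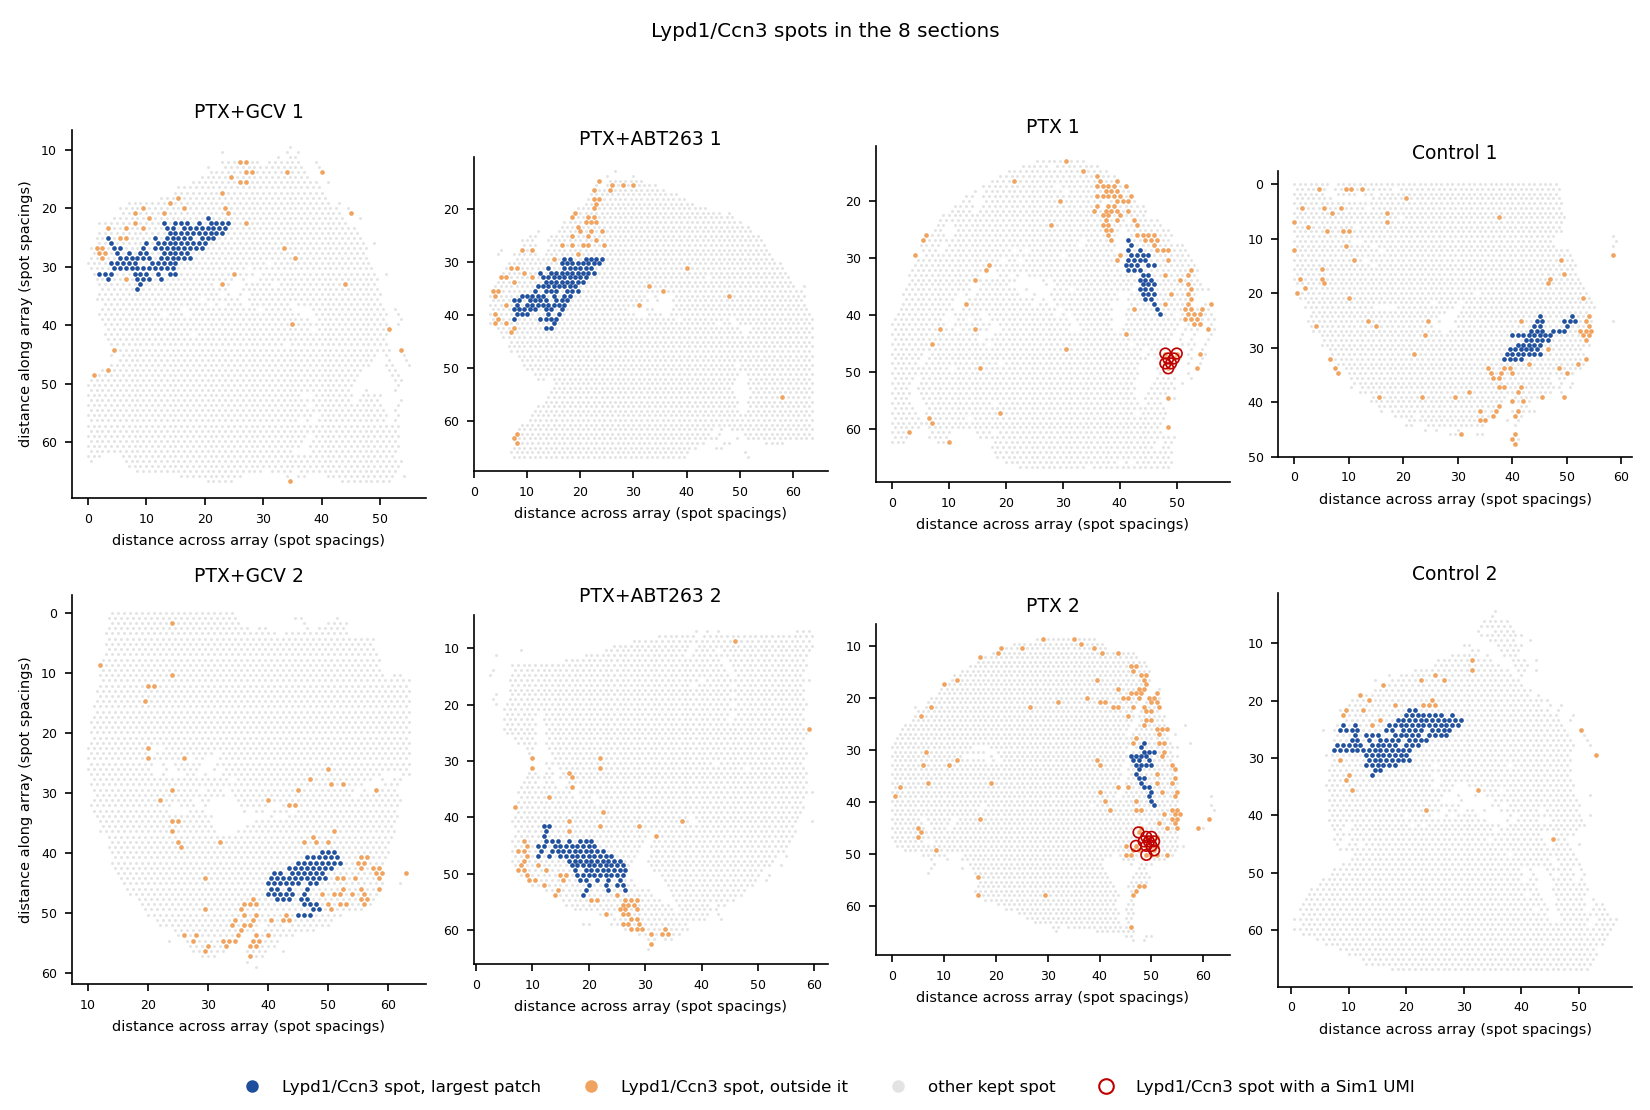
Position of the Lypd1/Ccn3 spots on the array in each of the 8 sections, with axes in spot spacings, the largest connected patch in blue, the other chosen spots in orange, remaining kept spots in grey and red rings on chosen spots with a Sim1 UMI. The largest patch has 127 spots in Control section 2 and 27 in PTX section 2.

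Outside the 6 marker genes, C1ql3, Hpcal1 and Lmo3 had the highest median ratios to the other spots among genes with a mean of 20 CPM or more. C1ql3, which encodes a secreted C1q-like protein of synapses, had a level of 74.3 ± 35.5 CPM in the Lypd1/Ccn3 spots and 13.5 ± 3.60 in the other spots (SD, n = 8 sections), a median log2 ratio of 2.33 that ranged from 1.64 to 2.77. Hpcal1, a neuronal calcium sensor, had 270 ± 80.9 and 77.2 ± 16.0 CPM (SD, n = 8), with a median log2 ratio of 1.73. The transcriptional cofactor Lmo3 was the steadiest of the leading genes between sections, at 233 ± 23.2 and 78.3 ± 10.4 CPM (SD, n = 8). Nptxr, the neuronal pentraxin receptor, had 968 ± 134 CPM in the Lypd1/Ccn3 spots and 347 ± 55.9 in the other spots (SD, n = 8), and Slc30a3, the transporter that fills synaptic vesicles with zinc, had 210 ± 36.4 and 75.8 ± 8.76. These 5 genes, with Ccdc3, Syt17 and Mas1, were among the 10 genes at least 2 times as high as in the other spots in each of the 8 sections, 0.136% of the 7355 genes with a mean of 20 CPM or more. Another 49 genes (0.666%) were at least 2 times as low in each section, and the median log2 ratio over the 7355 genes was 0.013.

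**Figure D3:**
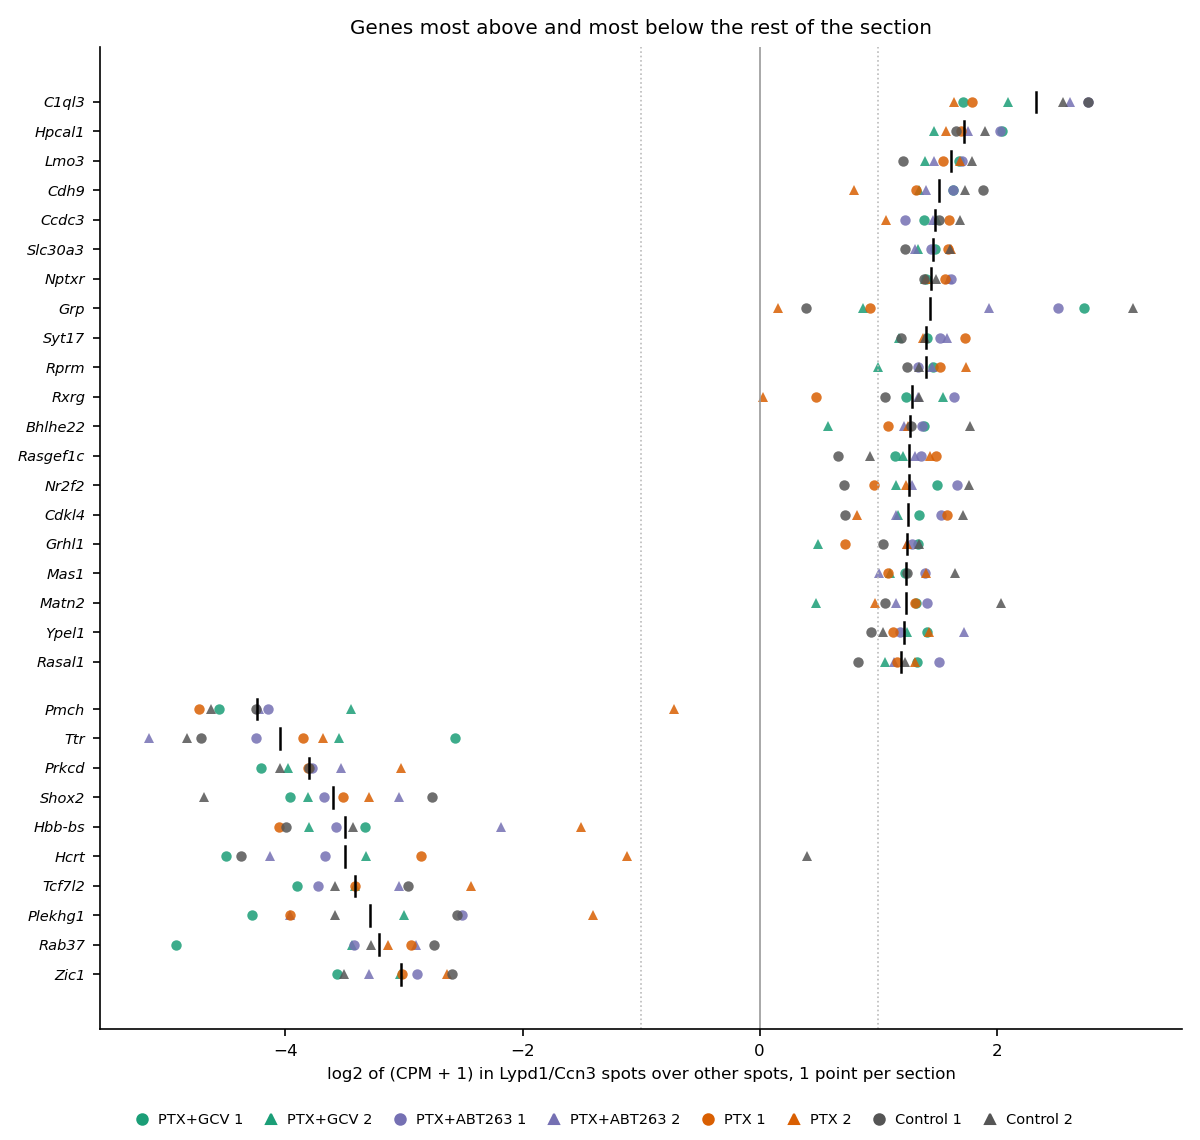
Log2 ratio of the level in the Lypd1/Ccn3 spots to that in the other spots, computed on CPM plus 1, for the genes with the highest and the lowest median ratio outside the 6 marker genes, with 1 point per section and a bar at the median. C1ql3 lies between 1.64 and 2.77 and Prkcd between -4.20 and -3.02.

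Among the genes lowest in the Lypd1/Ccn3 spots were Prkcd, Tcf7l2, Shox2 and Ttr. Prkcd, a protein kinase C of thalamus and central amygdala, had a level of 16.6 ± 3.53 CPM in these spots and 248 ± 76.7 in the other spots (SD, n = 8). Tcf7l2 and Shox2, transcription factors of the thalamus, had median log2 ratios of -3.41 and -3.60, and Ttr, the main product of choroid plexus, of -4.05. The summed level of the oligodendrocyte and myelin genes in these spots was 0.37 times that in the other spots as a median over sections, and 11 of its 11 genes were lower in all 8 sections. Lower in every section by any amount held for 18.1% of the 7355 genes and higher for 19.6%. The astrocyte list stood at 0.83 times and the microglial list at 0.85 times the level of the other spots, and the interneuron list at 1.1 times.

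Genes of piriform cortex and amygdala outside the marker set gave a mixed picture. Their summed level was 1.60 times that of the other spots as a median over sections (range 1.23 to 2.08) and 1.81 times that of other spots high in isocortex layer genes (1.37 to 1.93). Of 12 such genes 9 reached 20 CPM, and 3 of these, Lmo3, the neuropeptide gene Grp and the synaptic vesicle gene Synpr, were higher in all 8 sections, where 19.6% of the 7355 genes were, with a median log2 ratio of 0.39 over the list. Grp spread widely, at 82.8 and 17.4 CPM in PTX+GCV sections, 53.2 and 35.7 in PTX+ABT263-labelled sections, 13.3 and 6.66 in PTX sections and 8.81 and 87.9 in Control sections. The secreted Wnt amplifier Rspo2 had a median log2 ratio of 1.64, while Nr4a2, Gnb4, Reln and Meis2 lay between 0.02 and 0.11. Tfap2d, a transcription factor of the basolateral amygdala, reached only 0.348 ± 0.303 CPM in the Lypd1/Ccn3 spots and 0.0186 ± 0.0269 in the other spots (SD, n = 8). Of 6 central and medial amygdala genes at 20 CPM, 5 were lower in all 8 sections, with a summed level 0.31 times that of the other spots. Prkcd, also a gene of thalamus, made up a large part of that sum in the other spots. Against the spots high in isocortex layer genes the summed level was 0.76 times (0.52 to 0.98). The list of glutamatergic forebrain genes had a summed level 1.25 times that of the other spots (1.07 to 1.37). Against the spots high in isocortex layer genes it stood at 0.78 times (0.70 to 0.87). Of its 8 genes 4 were higher and 1 lower in all 8 sections, where 19.6% and 18.1% of the 7355 genes were. One of the 8, the vesicular glutamate transporter Slc17a7, had a median log2 ratio of 0.82, against 0.35 for the list. Thus 3 of the 9 piriform and amygdala genes at 20 CPM were raised in every section, against 19.6% of the 7355 genes. The difference between these shares was not tested.

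Isocortex gave a second contrast. The isocortex spots were the 3373 other spots in the top 6% of a section for upper layer, layer 5 or layer 6 genes. Against them 10 of 7277 genes (0.137%) were at least 2 times as high in each section and 21 (0.289%) at least 2 times as low. C1ql3 kept a median log2 ratio of 2.35, and the nuclear receptor Nr2f2 had 2.15. The layer lists themselves chose the isocortex spots. Lower values of these lists in the Lypd1/Ccn3 spots than in the isocortex spots follow from that choice and are description only. The upper layer list stood at 0.45 times its isocortex level. The layer 6 and subplate list stood at 0.83 times that level, and at 1.75 times the level of the other spots. Some chosen spots also ranked in the top 6% for layer 6 genes, 28 and 26 in PTX+GCV sections, 20 and 14 in PTX+ABT263-labelled sections, 26 and 24 in PTX sections and 13 and 18 in Control sections. Both PTX sections had more such spots than either Control section, and the PTX+GCV sections had as many or more.

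Relatives of the marker genes did not move as families. Among the Kv2 channels and the silent subunits that join them, Kcnf1 had a median log2 ratio to the other spots of 0.95 (range 0.81 to 1.08) and Kcnv1 of 0.92, and Kcng4 was lower at -2.18. Among Ly6 prototoxins and nicotinic receptor subunits, Ly6h was higher at 0.68, and Lynx1 and the receptor subunit Chrna4 were lower at -0.72 and -0.95. In the retinoic acid pathway the receptor Rxrg stood at 1.28 and the synthesis enzyme Aldh1a1 at -1.72. The type II receptor Acvr2a had a ratio of 0.97, while the list of BMP ligands, inhibitors, receptors and targets had a summed level 1.0 times that of the other spots.

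Within the choice, the largest patch and the scattered spots had different genes, a contrast drawn after the values were seen and given without a test. Grp, with a median log2 ratio of the patch to the scattered spots of 2.01, the myosin light chain gene Myl4 with 1.93 (range 1.2 to 2.80), Rspo2 with 1.86, the cofactor Zfpm2 with 1.83, the mannosidase Man1a with 1.62, Spink8 with 1.53 and C1ql3 with 1.44 were higher in the patch. Frzb, a secreted Wnt inhibitor, with -2.45, Ptgds with -1.65 and the extrasynaptic GABA-A receptor subunit Gabrd with -1.47 were higher in the scattered spots. Igfn1 separated both sets most among the marker genes. In the patch it had 3.34 and 24.9 CPM in PTX+GCV sections, 0.977 and 2.02 in PTX+ABT263-labelled sections, 3.06 and 2.4 in PTX sections and 1.09 and 0.868 in Control sections, and in the scattered spots 31.1 to 62.7 over the 8 sections. Cyp26b1 was higher in the patch, with a median log2 ratio of 1.66. The upper layer isocortex list was lower in the patch in all 8 sections, with a median log2 ratio of -0.88.

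**Figure D4:**
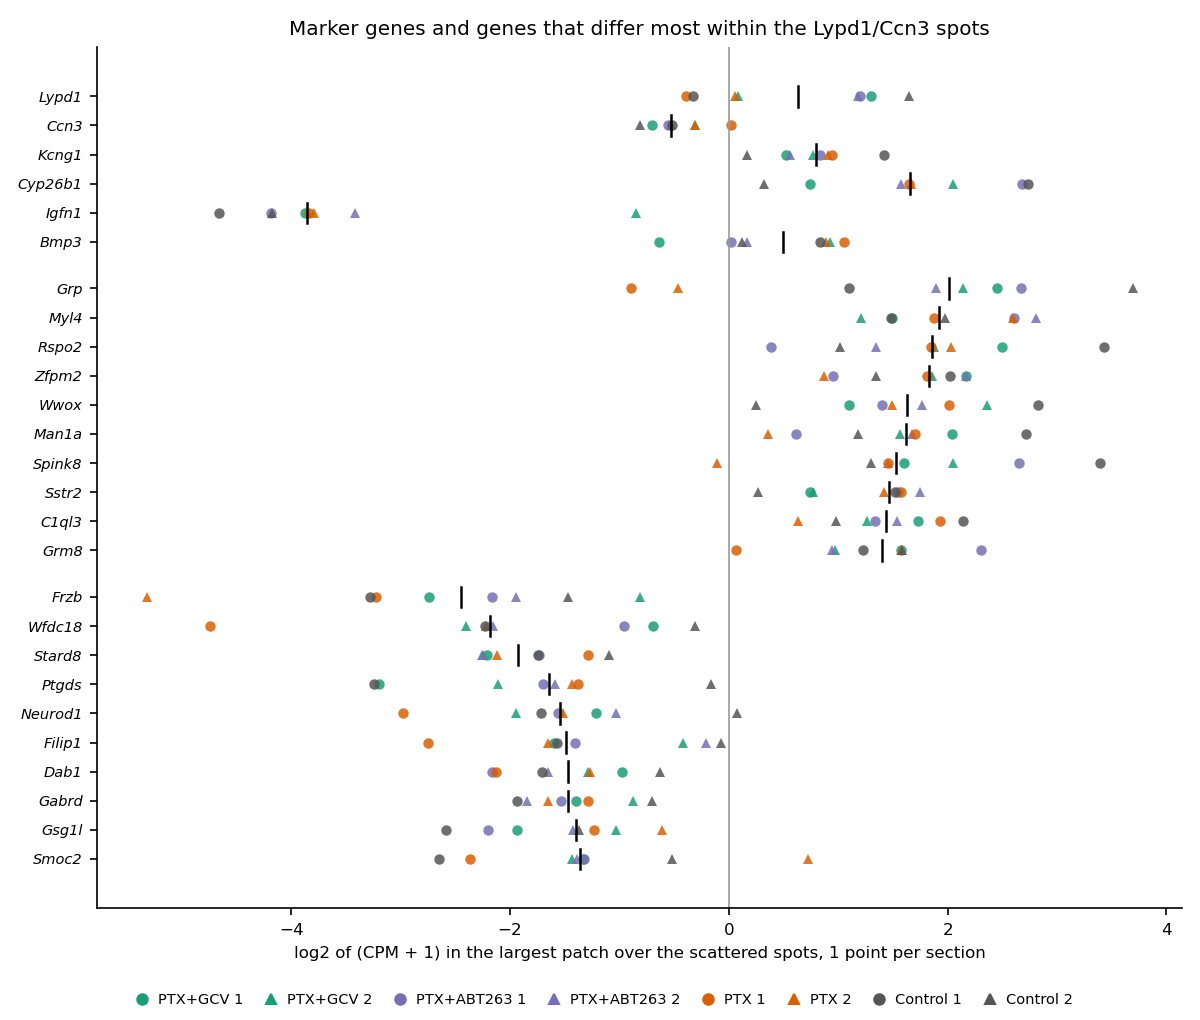
Log2 ratio of CPM plus 1 in the largest patch to that in the scattered Lypd1/Ccn3 spots, for the 6 marker genes and the 10 genes highest on each side, with 1 point per section and a bar at the median. C1ql3 and Myl4 lie above 0 in all 8 sections and Igfn1 below 0, with a median of -3.85.

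The first group comparison asked how PTX treatment differed from Control in these spots. UMIs were summed per section and tested with edgeR's quasi-likelihood test over 12109 genes in all 8 sections, with Benjamini-Hochberg adjustment. PTX against Control sections gave 34 genes past an adjusted p of 0.05 (0.281%), of which 20 were higher (0.165%) and 14 lower (0.116%), at 1166 genes with an unadjusted p under 0.05. The median log2 change of all genes was -0.0010. C1ql3 and other genes of the patch fell, and the striatal gene Ppp1r1b and the haemoglobin gene Hbb-bs were among those that rose. A sum over spots cannot tell fewer cells of a type from less RNA per cell.

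C1ql3 (chromosome 2, 13003457 to 13011806, minus strand) had 32.4 and 29.8 CPM in PTX sections and 91.6 and 99.3 in Control sections. All PTX values lay below all Control values. It fell by 1.72 in log2 terms (SE 0.173, edgeR adjusted p = 9.08e-05). Etv1 (chromosome 12, 38779380 to 38870484, plus strand), a transcription factor of deep cortical neurons, was at 66.7 and 60.3 CPM in PTX sections and 125 and 124 in Control sections, a fall of 1.07 (SE 0.128, edgeR adjusted p = 0.000624). Its groups did not overlap either. Myl4, at 35.7 and 39.9 CPM in PTX sections and 75.8 and 100 in Control sections, fell by 1.34 (edgeR adjusted p = 0.0019). Spink8, a protease inhibitor gene also expressed in hippocampal pyramidal cells, was at 6.63 and 7.71 CPM in PTX sections and 20.6 and 48.4 in Control sections (edgeR adjusted p = 0.00369). The sialyltransferase gene St6galnac5 fell by 0.86, Man1a by 1.62, Zfpm2 by 1.74 and Stum by 0.66, each with edgeR adjusted p values between 0.00469 and 0.00975. Ddn, which encodes the postsynaptic protein dendrin, had 447 and 410 CPM in PTX sections and 647 and 687 in Control sections, a fall of 0.74 (edgeR adjusted p = 0.0248).

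Several of the fallen genes, C1ql3, Myl4, Spink8, Man1a and Zfpm2, were also among the genes chosen for a high level in the patch. Both PTX sections had the smallest patches, and the part that patch size plays in the fall of these genes was not tested. Within the patch, C1ql3 had 74.9 and 43.1 CPM in PTX sections and 143 and 108 in Control sections. Myl4 had 81.0 and 141 CPM there in PTX sections and 108 and 114 in Control sections. In the scattered spots alone, an alternative added after the data were seen, 12 genes passed. Etv1 had a log2 change of -0.03 there (edgeR adjusted p = 0.994) and C1ql3 of -0.79 (edgeR adjusted p = 0.618), while Ddn fell by 0.84 (edgeR adjusted p = 0.00315). Myl4, Spink8, Man1a, Zfpm2, St6galnac5 and Stum did not pass in the scattered spots either. Of the 10 tested genes of the piriform and amygdala list, 1, Etv1, passed as lower, and the list's median log2 change was -0.15.

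Striatal marker genes stood higher in PTX. Of 8 such genes 4 passed as higher by edgeR and 2 by DESeq2, all 8 were positive, and their median log2 change was 1.04. Ppp1r1b, which encodes the dopamine signalling protein DARPP-32, had 150 and 173 CPM in PTX sections and 82.8 and 77.3 in Control sections (log2 change 0.92, edgeR adjusted p = 0.00975). The dopamine receptor genes Drd1 and Drd2 rose by 1.11 and 2.4 (edgeR adjusted p = 0.0376 and 0.0366), Drd2 at 10.7 and 10.2 CPM in PTX sections and 1.76 and 1.83 in Control sections. The summed level of the list in these spots was 622 and 753 CPM in PTX sections and 407 and 293 in Control sections. Outside them it was 645 and 906 in PTX sections and 637 and 528 in Control sections. Other lists stood higher as well, though no gene of them passed in edgeR or DESeq2: 11 of 11 myelin genes were positive with a median log2 change of 0.40 and 5 at an unadjusted p under 0.05, 4 of 5 layer 6 genes with 0.85 and 3 at that level, and 5 of 5 choroid plexus genes with 0.86 and 2 at that level. The part that such lists play in the striatal values was not tested. Tac1, a tachykinin gene of striatal neurons, had 48.6 and 58.9 CPM in PTX sections and 22.3 and 26 in Control sections (log2 change 1.04, edgeR adjusted p = 0.0179). It was listed here with the central and medial amygdala genes. Of the 7 tested genes of that list 1, Tac1, passed. In the list 3 genes were positive and 4 negative, with a median log2 change of -0.16. The haemoglobin genes Hbb-bs and Hba-a2 rose too, and Hbb-bs was at 9.95 and 63.1 CPM in PTX sections and 1.76 and 2.20 in Control sections, so that PTX section 2 stood apart. The summed haemoglobin list there was 118, against 17.7 in PTX section 1.

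Crtac1 (chromosome 19), an extracellular matrix gene, had 92.8 and 99.5 CPM in PTX sections and 45.2 and 46.5 in Control sections (log2 change 0.97, SE 0.131, edgeR adjusted p = 0.00197), and the groups did not overlap. C1ql1, a relative of C1ql3, rose by 1.09 (edgeR adjusted p = 0.0455), at 30.9 and 43.5 CPM in PTX sections and 13.5 and 18.3 in Control sections. Lamp5, a marker of upper layer and some inhibitory neurons, rose by 0.85 (edgeR adjusted p = 0.0332), and the synaptic organizer Cbln2 by 1.94 (edgeR adjusted p = 0.0366). Of the 5 tested genes of the upper layer list 1, Lamp5, passed. In that list 3 genes were positive and 2 negative, with a median log2 change of 0.08. Lamp5 was at 0.33 in the scattered spots alone (edgeR adjusted p = 0.756). Without PTX section 2 a single gene, C1ql3, stayed past the threshold (log2 change -1.66, edgeR adjusted p = 0.0171). The count was 77 when either PTX+GCV section was dropped, 21 for either PTX+ABT263-labelled section, 17 for PTX section 1, 235 for Control section 1 and 17 for Control section 2, and DESeq2 called 6 higher and 11 lower.

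**Figure D5:**
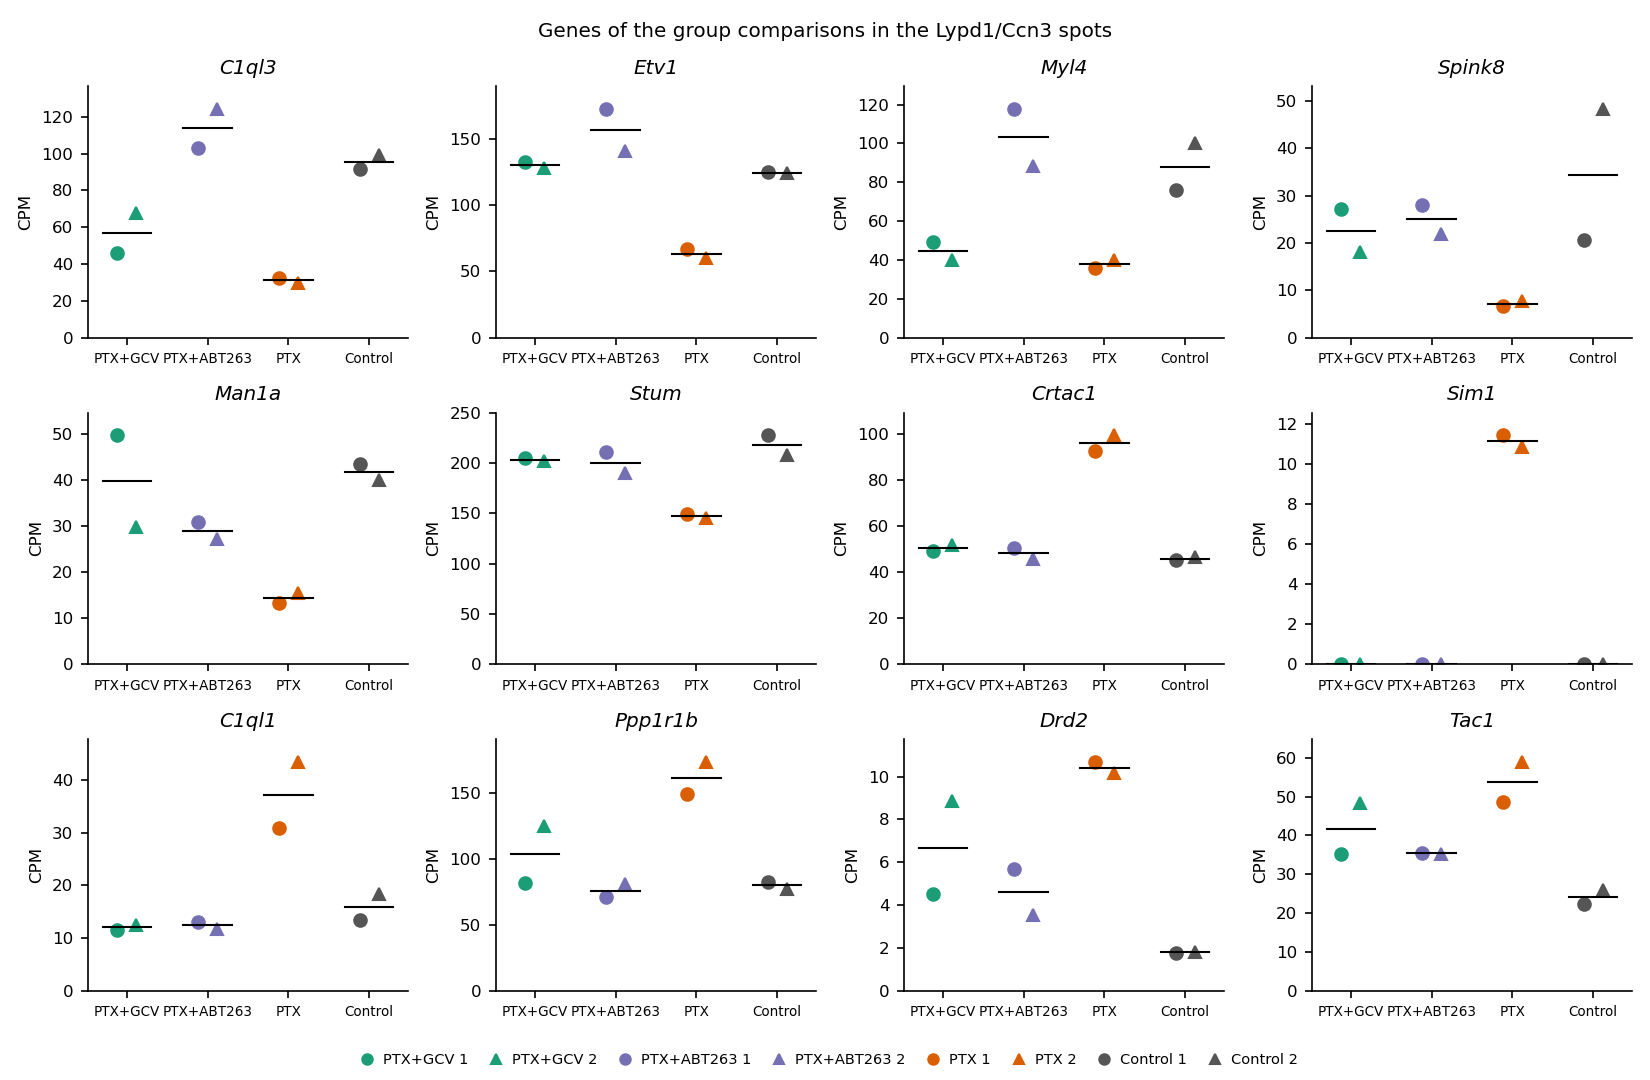
Level in CPM in the Lypd1/Ccn3 spots of genes named in the group comparisons, 1 point per section and a bar at the group mean, with groups in the order PTX+GCV, PTX+ABT263, PTX and Control. C1ql3 is at 32.4 and 29.8 in PTX sections and 91.6 and 99.3 in Control sections.

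The second comparison set PTX+GCV against the same PTX sections, so its values share those sections with the comparison above and the directions are not independent. It gave 9 genes past the threshold (0.0743%), 4 higher (0.033%) and 5 lower (0.0413%), at 597 genes with an unadjusted p under 0.05 and 2 and 3 genes by DESeq2. Etv1, at 132 and 128 CPM in PTX+GCV sections and 66.7 and 60.3 in PTX sections, rose by 1.0 (SE 0.125, edgeR adjusted p = 0.00155). Man1a, at 49.7 and 29.7 CPM in PTX+GCV sections and 13.3 and 15.4 in PTX sections, rose by 1.37 (edgeR adjusted p = 0.033). Neither gene overlapped between the groups. Crtac1, at 49.2 and 52.0 CPM in PTX+GCV sections and 92.8 and 99.5 in PTX sections, fell by 0.96 (SE 0.125, edgeR adjusted p = 0.00155), and C1ql1 fell by 1.65 (edgeR adjusted p = 0.00256). C1ql3 did not pass, at 46.2 and 68.0 CPM in PTX+GCV sections and 32.4 and 29.8 in PTX sections (log2 change 0.87, edgeR adjusted p = 0.105).

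Among the other genes that passed, Pmch was at 33.1 and 71.5 CPM in the Lypd1/Ccn3 spots of PTX+GCV sections and 1.11 and 0 in those of PTX sections (edgeR adjusted p = 0.0325), and it moved the same way outside them. Hbb-bs and Hba-a2 were lower (edgeR adjusted p = 0.0325 and 0.043). Of the 8 striatal genes none passed, all 8 were negative and their median log2 change was -0.40, against 0.0028 for all genes, with 4 at an unadjusted p under 0.05 and none past 0.05 in DESeq2. Their summed level was 440 and 664 CPM in PTX+GCV sections and 622 and 753 in PTX sections, so the sections overlapped. In the scattered spots alone Etv1 had a log2 change of 0.34 (edgeR adjusted p = 0.9999) and Crtac1 fell by 1.04 (edgeR adjusted p = 0.00105). The scattered spots hold the Sim1 spots described further on. Without the Sim1 spots Crtac1 had a log2 change of -0.64 and C1ql1 of -0.55 (edgeR adjusted p = 0.116 and 0.993). Etv1 rose by 1.01 without them (edgeR adjusted p = 0.00231). Leaving out PTX section 2 left 0 genes past the threshold by edgeR, and leaving out either Control section gave 21.

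The third comparison set PTX+ABT263-labelled sections against the same PTX sections, with the difference in sex described above. It gave 45 genes past the threshold (0.372%), 20 higher (0.165%) and 25 lower (0.206%), at 1152 with an unadjusted p under 0.05. DESeq2 called 12 higher and 11 lower. With library totals in place of TMM factors the split was 14 higher and 74 lower. Of the 45, 38 lay outside chromosomes X and Y. Xist was at least 16.6-fold higher against a floor of 3 counts per library (edgeR adjusted p = 3.46e-05), and Kdm5d at least 10.6-fold lower (edgeR adjusted p = 0.000251).

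C1ql3 had 103 and 124 CPM in PTX+ABT263-labelled sections and 32.4 and 29.8 in PTX sections (log2 change 2.03, SE 0.166, edgeR adjusted p = 1.66e-06), and it held in the scattered spots alone (1.34, edgeR adjusted p = 0.0128). Etv1 had 173 and 141 CPM in PTX+ABT263-labelled sections and 66.7 and 60.3 in PTX sections (log2 change 1.47, SE 0.123, edgeR adjusted p = 1.66e-06), but 0.60 in the scattered spots alone (edgeR adjusted p = 0.215). Myl4 rose by 1.61 (edgeR adjusted p = 3.69e-05), at 118 and 88.3 CPM in PTX+ABT263-labelled sections and 35.7 and 39.9 in PTX sections. For these 3 genes the groups did not overlap. In the scattered spots alone Myl4 had a log2 change of 0.13 (edgeR adjusted p = 0.968). St6galnac5 and Stum rose by 0.79 and 0.61 (edgeR adjusted p = 0.00782 and 0.013), the cadherin gene Cdh8 by 1.47 (edgeR adjusted p = 0.0155) and the synapsin gene Syn2 by 0.62 (edgeR adjusted p = 0.025). None of them passed in the scattered spots alone. The log2 changes there were 0.35 for St6galnac5, 0.47 for Stum, 0.42 for Cdh8 and 0.34 for Syn2 (edgeR adjusted p = 0.706, 0.231, 0.890 and 0.505). The calcium-binding protein gene Necab1 rose by 0.69 (edgeR adjusted p = 0.0136) and was at -0.08 in the scattered spots alone.

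On the lower side, Ppp1r1b fell by 0.93 (edgeR adjusted p = 0.00575), at 70.9 and 80.9 CPM in PTX+ABT263-labelled sections and 150 and 173 in PTX sections. Of the 8 striatal genes 2 passed as lower and all 8 were negative, with a median log2 change of -0.93, against 0.0054 for all genes. The summed striatal level was 382 and 314 CPM in PTX+ABT263-labelled sections and 622 and 753 in PTX sections. Crtac1 fell by 0.83 (edgeR adjusted p = 0.00352) and C1ql1 by 1.42 (edgeR adjusted p = 0.00575). The cold-induced, X-linked RNA-binding protein gene Rbm3, at 52.9 and 63.6 CPM in PTX+ABT263-labelled sections and 129 and 119 in PTX sections, fell by 0.93 (edgeR adjusted p = 0.00549). Gabrd fell by 0.77 (edgeR adjusted p = 0.0474) and Avp fell by 5.06 (edgeR adjusted p = 0.011). In the scattered spots alone Gabrd had a log2 change of -0.15, Crtac1 of -0.53 and Ppp1r1b of -0.55 (edgeR adjusted p = 0.913, 0.290 and 0.216). C1ql1, Rbm3 and Avp passed there (edgeR adjusted p = 0.0274, 0.0158 and 0.000298). Without the Sim1 spots described further on, C1ql1 had a log2 change of -0.33 and Crtac1 of -0.52 (edgeR adjusted p = 0.731 and 0.101). Ppp1r1b, Rbm3, Gabrd and Avp passed without them (edgeR adjusted p = 0.00358, 0.00535, 0.0162 and 0.0130). Among the 13 genes that mitochondria encode none passed in edgeR or DESeq2, with 10 at an unadjusted p under 0.05, all 13 positive and a median of 0.45. The count ranged with the section left out: it was 82 when PTX+GCV section 1 was dropped and 81 for section 2, 8 and 15 for the PTX+ABT263-labelled sections 1 and 2, 22 and 12 for the PTX sections and 153 and 150 for the Control sections.

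Sim1 (chromosome 10, 50894754 to 50989152, plus strand), a transcription factor of the paraventricular hypothalamus and of parts of the amygdala, was found in the chosen spots of the PTX sections alone. It had 31 UMIs in each PTX section and 0 in the other 6. Sim1 therefore passed the filter on low counts through the PTX sections alone, and its p-values below are no independent support. It was at least 7.79-fold higher in PTX than in Control sections against a floor of 3 counts per library (edgeR adjusted p = 0.0032), at least 9.43-fold lower in PTX+GCV than in PTX sections (edgeR adjusted p = 0.00155) and at least 10.2-fold lower in PTX+ABT263-labelled sections (edgeR adjusted p = 0.000904). The UMIs came from 7 spots in PTX section 1 and 11 in PTX section 2, none in the largest patch, and 7 and 8 of these touched another Sim1 spot. Outside the Lypd1/Ccn3 spots Sim1 was found in 8 and 16 spots of PTX+GCV sections, 14 and 10 of PTX+ABT263-labelled sections, 32 and 31 of PTX sections and 8 and 22 of Control sections.

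The spots with Sim1 had a profile of their own, chosen after the values were seen and given without a test. Cbln2 had 221 and 313 CPM in the Sim1 spots of PTX sections 1 and 2 and 14.0 and 23.2 in the remaining Lypd1/Ccn3 spots of the same sections. C1ql1 had 190 and 287 against 16.8 and 17.8, Synpr 1242 and 1345 against 142 and 161, and the vesicular glutamate transporter of subcortical neurons, Slc17a6, 194 and 114 against 26.1 and 42.6. Lypd1 was higher in the Sim1 spots, at 696 and 807 CPM against 224 and 199, Ccn3 lower at 67.8 and 92.1 against 312 and 224, and Igfn1 had no UMI there. Cyp26b1 was also higher there, at 90.4 and 147 CPM against 35.7 and 33.3. Without them, an alternative added after the data were seen, the PTX against Control log2 change of C1ql1 was -0.0076 (edgeR adjusted p = 0.998) and that of Crtac1 0.65 (edgeR adjusted p = 0.0549), while C1ql3 fell by 1.76.

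Whether a change in the Lypd1/Ccn3 spots differed from that in the rest of the same sections was tested with limma on the difference of log2 CPM within each section. A single gene, Sim1, passed in each of the 3 comparisons (0.00826% of 12109), with differences in change of 5.83 for PTX against Control, -5.35 for PTX+GCV against PTX and -5.32 for PTX+ABT263 against PTX (SE 0.283 each, limma adjusted p = 0.0060, 0.0102 and 0.0106). All 3 comparisons share the PTX sections, the only ones with Sim1 UMIs in these spots, and Sim1 entered the tests through them alone. The 3 calls are therefore not independent. The size of these differences in change depends on the prior count, since 6 sections had 0 UMIs, and only the floors given above bound it. The call was lost in all 3 comparisons with the top 10% of spots and without either PTX section (limma adjusted p = 0.228, 0.254 and 0.361 without PTX section 2). In both comparisons against PTX it was also lost with the replicate block and without any 1 of the PTX+GCV or PTX+ABT263-labelled sections. For all other genes no difference from the rest of the section passed by limma, at 953, 652 and 824 genes with an unadjusted p under 0.05. C1ql3 had a difference in change of -0.97 for PTX against Control (limma adjusted p = 0.328), Crtac1 of 0.93 (limma adjusted p = 0.241) and C1ql1 of -1.39 for PTX+GCV against PTX (limma adjusted p = 0.0786). The group changes of these genes are therefore not shown to be particular to the Lypd1/Ccn3 spots.

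The study mapped Cdkn2a (chromosome 4, 89274471 to 89294653, minus strand), the gene of p16. Chosen spots with a Cdkn2a UMI numbered 0 of 166 and 0 of 170 in PTX+GCV sections, 1 of 169 and 0 of 161 in PTX+ABT263-labelled sections, 1 of 153 and 3 of 164 in PTX sections and 0 of 141 and 0 of 154 in Control sections. These are 0.592% (exact Clopper-Pearson 95% interval 0.0150 to 3.25) in PTX+ABT263-labelled section 1, 0.654% (0.0165 to 3.59) in PTX section 1 and 1.83% (0.379 to 5.25) in PTX section 2. A count of 0 allowed a share of up to 1.76% to 2.13% at 3 counts, or 2.15% to 2.58% by the exact interval, and intervals and limits cover counting error only. The share differed by 1.24 points between PTX and Control (exact two-sided permutation test, p = 0.333, the smallest that 2 against 2 sections allow), by -1.24 points between PTX+GCV and PTX (p = 0.333, exact) and by -0.946 points between PTX+ABT263 and PTX (p = 0.333, exact). With 2 sections a group, no difference could pass 0.05. Outside the Lypd1/Ccn3 spots, Cdkn2a was found in 3 of 2609 and 4 of 2669 spots of PTX+GCV sections. It was found there in 8 of 2648 and 6 of 2526 spots of PTX+ABT263-labelled sections. PTX sections held it in 15 of 2405 and 6 of 2571 such spots, and Control sections in 2 of 2205 and 5 of 2417. Of the study's panel of 10 senescence genes 5 were tested, and none passed in edgeR or DESeq2 in any comparison, nor at an unadjusted p under 0.05. Cdkn1a, the gene of p21, had 17.3 and 16.5 CPM in PTX sections and 18.2 and 10.3 in Control sections.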

How the data were processed

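The deposited files hold raw UMI counts per gene and spot, made by the authors with Space Ranger (1.2.1 in the file headers) on mm10, with the image positions of spots. Normalization by Seurat 4.0, named in the submitters' processing notes, was not applied to these counts. Loci are from GRCm38. The spots, marker genes and gene lists were chosen with earlier results of these data known. Genes named in the text were those with the highest or lowest ratio to other spots, those with the smallest adjusted p per group comparison whose sections did not overlap, and up to 4 per gene list. Sums of UMIs per section were tested with edgeR 4.0.16 (filterByExpr, TMM, glmQLFit, glmQLFTest) over 4 groups of 2 sections, with the 6 marker genes left out. Differences between spot sets used limma 3.58.1 with a prior count of 2, and DESeq2 1.42.0 was an alternative. Ratios were log2 of CPM plus 1. Tests were tried on simulated counts. Replicate numbers were not treated as pairing, as the correlations of deviations lay between -0.160 and 0.0087. Replicate sections differed beyond counting noise (chi-square per degree of freedom 2.83 to 6.13). TMM factors were 0.904 to 1.095. R 4.3.3 and Python 3.11.15 were used. The labels give 1 batch for all sections. Some genes that met the rule for named genes are not reported here, and they stay in the counts.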

Additional observations from a re-analysis of the deposited data

Results flagged for a closer look

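Sim1 was singled out because its change in the Lypd1/Ccn3 spots passed the test against that in the other spots of the same sections. The difference in log2 change was 5.83 for PTX against Control, -5.35 for PTX+GCV against PTX and -5.32 for PTX+ABT263 against PTX (limma adjusted p = 0.0060, 0.0102 and 0.0106). The size depends on the prior count, since the Lypd1/Ccn3 spots of the other 6 sections had 0 UMIs. The call was lost in all 3 comparisons with the top 10% of spots and without either PTX section (limma adjusted p = 0.228, 0.254 and 0.361 without PTX section 2). In both comparisons against PTX it was also lost with the replicate block and without any 1 of the PTX+GCV or PTX+ABT263-labelled sections. All 3 share the PTX sections, where 7 and 11 spots held its 31 and 31 UMIs. Sim1 entered the tests through these sections alone, so the 3 calls are not independent.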

How the results depend on the processing

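For PTX against Control, the 34 genes became 17 with DESeq2, 237 without a filter on low counts, 21 with the fit on the 2 groups compared, 17 without the sections labelled PTX+ABT263, 19 with the replicate block, 20 with all spots under tissue, 17 with counts thinned to the lowest total and 12 in the scattered spots, and 1 to 235 when a section was left out. The 9 genes of PTX+GCV against PTX became 5 with DESeq2, 48 without a filter, 21 with the 2 groups, 15 with the top 3% of spots and 0 to 21 with a section left out; the replicate block gave 8. The 45 of PTX+ABT263 against PTX became 23 with DESeq2, 88 with library totals, 258 without a filter, 298 with the 2 groups, 26 with the replicate block, 24 thinned, 19 in the scattered spots and 8 to 153 with a section left out. The single gene past the limma difference was 0 with the top 10% of spots in all 3 comparisons, and 0 with the replicate block in PTX+GCV against PTX and PTX+ABT263 against PTX. With a section left out it was 0 to 5 for PTX against Control and 0 to 1 for the other comparisons. The 10 genes at least 2 times as high became 6 with the top 3% of spots and 9 to 14 with a section left out. Only C1ql1 in PTX against Control without Sim1 spots (-0.0076) and Necab1 in PTX+ABT263 against PTX in the scattered spots (-0.082) turned direction; of the other values for single genes in group comparisons 1300 kept their side of the threshold, 638 lost it and 15 gained it. The samples carry 2 sections a group, so calls rest on a spread estimated over all groups.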
